A study of Mus musculus with 24 samples.

Results

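The enzymes that break down amino acids in the liver, together with those of the urea cycle, were followed as a list of 49 genes from 11 pathways. The list was drawn up by function, with no measured value in its rule, but with earlier results of these data known. Of these, 45 were measured, out of 18194 genes in all, each by the probe set with the highest mean over the arrays. The annotation used here gives Gls2, Sds, Sdsl and Gcat no probe set assigned to a single gene, and they were not analysed here.

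Messenger RNA of mouse liver was measured on 24 Affymetrix arrays, 3 in each of 8 groups. The groups were DEHP at 2, 8, 24 and 72 h and corn oil at 2, 8, 24 and 72 h. All were male B6C3F1 mice, 7 to 10 weeks old when they arrived, kept in cages of up to 5 on the RM1 diet and given at least 5 days to acclimatise. DEHP (diethylhexylphthalate), a plasticiser known as a peroxisome proliferator in rodents, was given by oral gavage at 1150 mg/kg/day in 10 ml/kg, with doses 24 h apart for 3 days; the other mice received the same volume of corn oil, the vehicle. The design text names 6 mice, without a link to the 3 arrays in each group, and it does not give the number of doses before the 24 h and 72 h samples. Whether each array stands for an animal of its own is not given in the labels, so p-values measure only the spread between these samples, which may be technical. Whole liver was used, and in such bulk samples fewer cells of a type and less RNA per cell cannot be told apart.

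Amino acids that are not needed for protein synthesis lose their nitrogen through transaminases and deaminating enzymes, and their carbon skeletons are burned or turned into glucose and ketone bodies. The nitrogen reaches the urea cycle as ammonia and aspartate. Hepatocytes hold most of these enzymes at high level, and many of the genes are known to respond to feeding, fasting, glucagon and glucocorticoids.

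Values are log2 signals from RMA (robust multi-array average), in which a difference of 1 is a 2-fold change. Differences are DEHP minus corn oil at the same time ± SE from a limma fit over all 24 arrays, with 3 arrays in each group. A gene was called changed where its Benjamini-Hochberg adjusted p, taken over 18194 genes, was under 0.05. Signals of different probe sets are not compared with each other. Except for Ass1 and Bcat2, whose mean signals lay at percentiles 62.6 and 39.5 of all genes, every measured member lay at or above percentile 89.4.

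The arrays carried the hepatocyte genes of the marker list at a mean of 14.05 to 14.16 on DEHP arrays and 14.13 to 14.19 on corn oil arrays. At 8, 24 and 72 h every DEHP array had the lower mean (under DEHP and corn oil, 14.05 to 14.12 against 14.13 to 14.19, 14.07 to 14.14 against 14.15 to 14.18, and 14.10 to 14.11 against 14.16 to 14.18). Of these 6 hepatocyte genes, all had a negative mean difference over the 4 times, with a median of -0.04, and 1 fell. Of all genes, 60.5% had a negative mean difference and 4.42% fell. Cyp4a14, a fatty acid omega-hydroxylase that peroxisome proliferators are known to raise, had 11.78 to 13.37 on DEHP arrays and 6.55 to 10.08 on corn oil arrays. Several arrays stood apart. Corn oil 8 h replicate 2 had an Actb signal 1.46 higher with the 3' probe set than with the 5' one, a measure of RNA degradation. The next array was corn oil 8 h replicate 1, with 0.82, while the DEHP arrays of 8 h had 0.55 to 0.71. Replicate 2 also had the highest 18S ribosomal RNA signal, 12.58 against at most 8.97 elsewhere. Its Gapdh 3' minus 5' difference of 0.63 was the highest, followed by 0.36 in corn oil 8 h replicate 1. Fits that left out replicate 2 alone kept replicate 1. Exocrine pancreas markers averaged 10.89 in DEHP 2 h replicate 1, 9.32 in DEHP 72 h replicate 1, 9.58 in corn oil 2 h replicate 2 and 9.77 in corn oil 72 h replicate 1, against 7.16 to 8.73 on the other arrays. Neutrophil markers averaged 7.34 in corn oil 72 h replicate 1 and at most 6.75 elsewhere. At 72 h all 7 macrophage markers had a negative difference and 3 fell, with a mean level of 8.44 to 8.72 on DEHP arrays and 8.93 to 9.31 on corn oil arrays. All 6 sinusoidal endothelium markers had a negative difference at 72 h and all 6 stellate cell markers at 2 h, with none called; their means did not overlap there, at 8.04 to 8.26 on DEHP arrays against 8.42 to 8.74 on corn oil arrays for the endothelium and 8.00 to 8.36 against 8.41 to 8.52 for stellate cells. Of all genes, 57.7% had a negative difference at 72 h and 56.8% at 2 h, and 3.05% were called lower at 72 h. All 3 DEHP arrays lay below all 3 corn oil arrays for 6.72%, 13.1%, 7.47% and 18.1% of single genes at 2, 8, 24 and 72 h. The Actb 3' minus 5' difference was 0.65 to 0.68 on DEHP arrays and 0.55 to 0.61 on corn oil arrays at 72 h. The part of these markers and RNA measures in the results below was not tested beyond the values given without those arrays and with the Actb difference as a covariate.

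Averaged over the 4 times, 10 of the 45 members fell and 1 rose under DEHP, which is 22.2% lower and 2.22% higher, against 4.42% and 1.98% of all genes. Prodh, Hal, Gnmt, Cdo1, Kynu, Asl, Haao, Cps1, Cbs and Fah fell, and Aass rose. The falls reached from 0.16 to 0.65 on the log2 scale, so that Prodh, with the largest, was 1.57-fold lower. They came from the urea cycle (2), tyrosine (1), tryptophan (2), proline (1), methionine and cysteine (3) and histidine (1) pathways, and no transaminase or branched-chain gene was among them. Of all 45 members, 38 had a negative mean difference (84.4%, against 60.5% of all genes), with a median of -0.09 against -0.02 over all genes. Among the 844 genes whose mean signal was at least 10.98, a group that holds 34 of the members, 13.7% fell and 8.41% rose on average, and 9 of those 34 members fell and 1 rose. The median mean difference of the 844 genes was -0.04.

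At single times the calls were few and differed in direction. At 2 h only Prodh fell, 2.22% of members against 0.214% of all genes, and none rose, against 0.616%. At 8 h Ass1, Prodh, Cdo1 and Hal fell and Tat, Tdo2 and Aass rose, which is 8.89% and 6.67% of members against 2.86% and 1.28% of all genes. At 24 h limma called no member, against 0.044% of all genes lower and 0.253% higher. A lack of calls there does not show that no member changed. At 72 h Kynu and Cbs fell and Ass1 rose, which is 4.44% and 2.22% of members against 3.05% and 1.13% of all genes. Shares were higher among the 844 genes with a mean signal of at least 10.98, which hold 34 members. Of those genes, 6.4% fell and 6.4% rose at 8 h, where 2 of the 34 members fell and 3 rose. At 72 h, 9% of them fell and 4.38% rose, and 2 of the 34 members fell and 0 rose. The F test for an effect at any time called 9 members (Ass1, Tat, Kynu, Prodh, Gnmt, Cbs, Cdo1, Hal and Aass), against 6.46% of all genes.

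The number of members with a negative difference, called or not, was 37 at 2 h (82.2%), 32 at 8 h (71.1%), 35 at 24 h (77.8%) and 25 at 72 h (55.6%), against 56.8%, 57.4%, 51.1% and 57.7% of all genes. At 72 h the share was near that of all genes. In the same order of times, the median difference was -0.17, -0.13, -0.07 and -0.03, against -0.02, -0.02, -0.00 and -0.03 over all genes. Over the 844 genes with a mean signal of at least 10.98 it was -0.03, -0.07, -0.01 and -0.05. At 72 h the members' median was thus less negative than that of these bright genes. At 2 h, 19 members (42.2%) had all 3 DEHP arrays below all 3 corn oil arrays and 1 member had them above, against 6.72% and 4.67% of all genes. At 8 h there were 12 below (26.7%) and 3 above (6.67%), against 13.1% and 5.44% of all genes. At 24 h there were 7 below (15.6%) and 1 above (2.22%), against 7.47% and 6.38%. At 72 h there were 9 below (20%) and 3 above (6.67%), against 18.1% and 10.1%, so that the share below was near that of all genes. The mean signal of the 45 members was 11.49, 11.59 and 11.50 on the DEHP arrays of 2 h, all below the 11.67, 11.69 and 11.77 on the corn oil arrays; at 8 h it was 11.50, 11.52 and 11.45 against 11.57, 11.56 and 11.70, again without overlap. At 24 h it was 11.65, 11.64 and 11.59 against 11.66, 11.63 and 11.85, and at 72 h 11.72, 11.70 and 11.75 against 11.65, 11.84 and 11.77, where the groups overlapped.

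**Figure D1:**
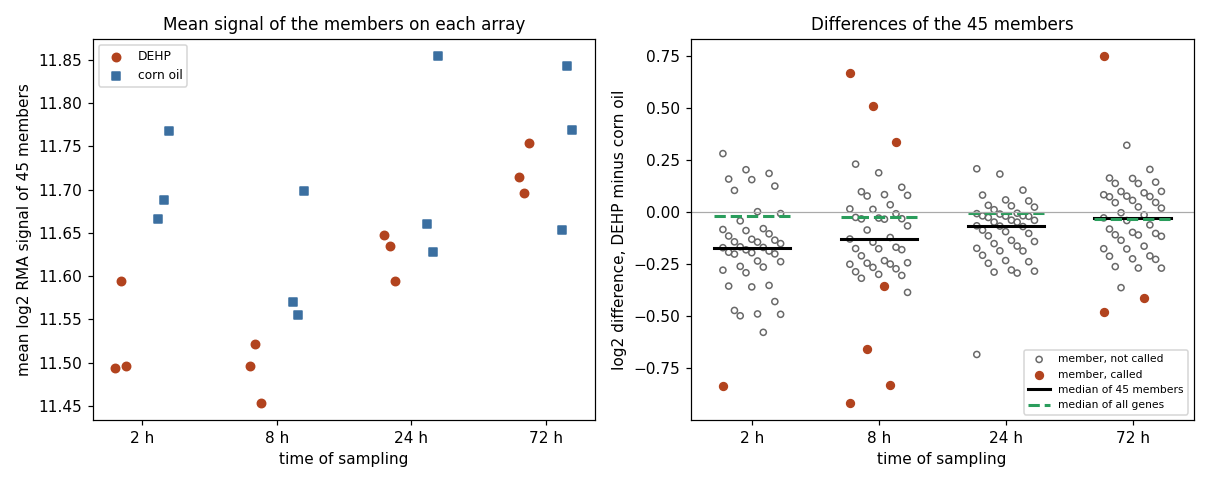
Left, mean log2 RMA signal of the 45 measured members on each array (DEHP circles left of corn oil squares) at 2, 8, 24 and 72 h; the groups do not overlap at 2 and 8 h and overlap at 24 and 72 h. Right, the log2 difference DEHP minus corn oil of each member at each time, filled where called, with the median of the 45 members (solid line) and of all genes (dashed line); the members' median lies at -0.17 at 2 h and -0.03 at 72 h.

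**Figure D2:**
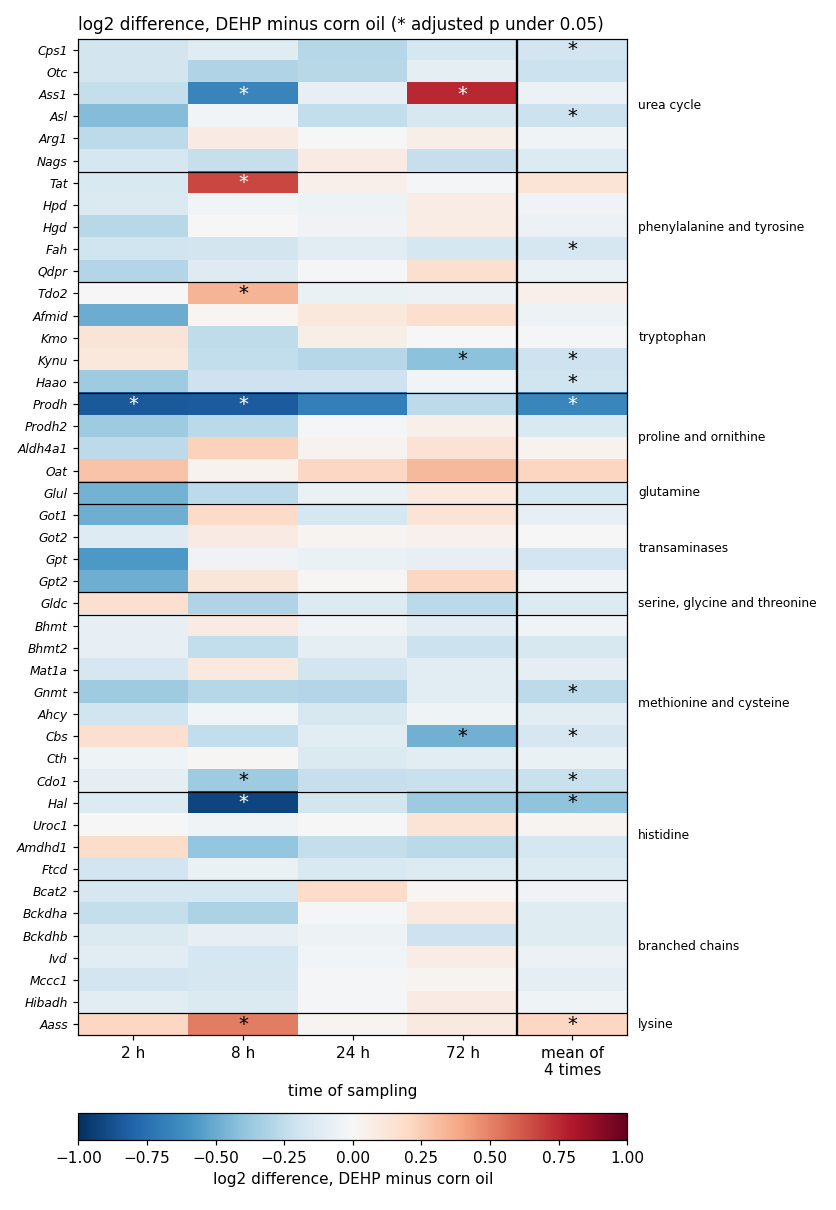
The log2 difference DEHP minus corn oil of the 45 measured members (down the page, by pathway) at 2, 8, 24 and 72 h and as the mean of the 4 times, blue where negative and red where positive; asterisks mark an adjusted p under 0.05. Prodh is blue at every time, Ass1 is blue at 8 h and red at 72 h, and Aass is the called member that is higher on average.

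The promoters of Prodh, Hal, Gnmt, Tdo2 and Aass are shown because these members moved in different directions. They are RefSeq sequences of mouse build GRCm38.p6, from 250 bases before to 50 bases after the annotated start, written 5' to 3' on the gene's strand. Capitals mark AGGTCA (the core of sites of PPAR and other nuclear receptors, printed as TGACCT where it lies on the other strand), TTGCNNAA (the core of C/EBP sites), TGACG (part of the CREB site) and GTTAAT (part of the HNF1 site), each searched on both strands, and no marked motif overlaps another.
Prodh, chr16:18089141-18089440, minus strand: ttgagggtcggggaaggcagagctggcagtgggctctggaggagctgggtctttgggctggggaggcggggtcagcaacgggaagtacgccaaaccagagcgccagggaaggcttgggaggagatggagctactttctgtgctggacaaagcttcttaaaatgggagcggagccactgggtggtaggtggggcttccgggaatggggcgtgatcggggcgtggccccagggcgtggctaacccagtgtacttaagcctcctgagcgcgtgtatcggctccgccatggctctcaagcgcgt
Hal, chr10:93488518-93488817, plus strand: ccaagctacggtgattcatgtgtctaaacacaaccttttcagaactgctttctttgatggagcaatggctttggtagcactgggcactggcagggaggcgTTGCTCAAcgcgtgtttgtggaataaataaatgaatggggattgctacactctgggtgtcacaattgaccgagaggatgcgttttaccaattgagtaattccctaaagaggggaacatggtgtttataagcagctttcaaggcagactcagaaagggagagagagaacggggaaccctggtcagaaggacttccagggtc
Gnmt, chr17:46729116-46729415, minus strand: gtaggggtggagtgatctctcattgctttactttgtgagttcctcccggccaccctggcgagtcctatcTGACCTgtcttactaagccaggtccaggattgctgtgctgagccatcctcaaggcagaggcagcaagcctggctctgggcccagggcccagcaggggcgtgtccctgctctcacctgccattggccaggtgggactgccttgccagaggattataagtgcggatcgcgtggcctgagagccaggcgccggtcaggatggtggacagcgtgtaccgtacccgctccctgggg
Tdo2, chr3:81975679-81975978, minus strand: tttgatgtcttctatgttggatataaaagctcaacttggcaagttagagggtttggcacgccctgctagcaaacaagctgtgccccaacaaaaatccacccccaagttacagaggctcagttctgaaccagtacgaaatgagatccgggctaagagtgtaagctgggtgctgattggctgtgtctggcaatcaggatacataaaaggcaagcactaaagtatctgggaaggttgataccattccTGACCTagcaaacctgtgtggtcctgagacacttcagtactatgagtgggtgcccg
Aass, chr6:23132937-23133236, minus strand: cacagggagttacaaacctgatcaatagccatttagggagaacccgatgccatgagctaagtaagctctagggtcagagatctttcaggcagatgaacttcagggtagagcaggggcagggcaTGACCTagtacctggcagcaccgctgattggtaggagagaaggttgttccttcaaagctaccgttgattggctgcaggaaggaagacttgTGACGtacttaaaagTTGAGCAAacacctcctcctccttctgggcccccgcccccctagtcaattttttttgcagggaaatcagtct

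The Prodh window holds none of these 4 motifs. Hal holds TTGCTCAA at -150 from its start, Gnmt holds AGGTCA on the other strand at -181, and Tdo2 holds it on the other strand at -6. Aass holds AGGTCA on the other strand at -127, TGACG at -37 and a C/EBP core on the other strand at -22. Promoters in the RefSeq table matched 37 of the members, with 39 promoters. AGGTCA was in 38.5% of these and in 16.3% of all 32851 promoters, TTGCNNAA in 12.8% and 10.8%, TGACG in 10.3% and 20.8%, GTTAAT in 12.8% and 7.1%, and the whole CREB site TGACGTCA in 0 of 39 and 1.79%. Also searched, but not marked above, were GCGTG (the core of xenobiotic response elements), in 41% and 32.4%, and TATAAA (the TATA box, forward strand), in 5.13% and 8.32%. Shares among other genes with a high signal in liver were not taken, so whether these differences are particular to the members was not tested. Of the 10 members that fell on average, 6 had a promoter in the table and 2 of them (Haao and Gnmt) held AGGTCA; of the 34 not called, 30 had a promoter and 12 held it. A match describes the letters in the window and shows no binding.

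In the urea cycle, which turns ammonia and aspartate into urea, Cps1 and Asl fell on average, and Ass1 fell at 8 h and rose at 72 h. The 6 measured members (Cps1, Otc, Ass1, Asl, Arg1 and Nags) all had a negative difference at 2 h, with a median of -0.21, and none was called there. Ass1, argininosuccinate synthase, joins citrulline with aspartate. It was read by 1 probe set only, with a mean signal of 7.87 at percentile 62.6 of all genes. How fully this probe set follows the Ass1 messenger RNA was not tested, and no second one assigned to Ass1 alone was there to compare. Probe sets with several symbols were left out, and whether any of them reads Ass1 was not tested. The Ass1 values below are those of this 1 probe set. At 2 h its signals were 7.50, 7.52 and 7.40 on DEHP arrays and 7.62, 7.72 and 7.80 on corn oil arrays. At 8 h they were 7.56, 7.32 and 7.43 under DEHP and 8.04, 7.99 and 8.25 under corn oil. Every DEHP array lay below every corn oil array at both times. At 24 h the signals were 8.43, 7.82 and 8.21 under DEHP and 8.22, 7.87 and 8.63 under corn oil, which overlapped. At 72 h they were 8.37, 8.30 and 8.26 under DEHP and 7.85, 7.43 and 7.40 under corn oil, and here every DEHP array was the higher. The difference was -0.66 ± 0.16 at 8 h (limma adjusted p = 0.0152) and 0.75 ± 0.16 at 72 h (adjusted p = 0.00903), which is 1.68-fold. The DEHP arrays were lower at 2 and 8 h than at 24 and 72 h, while corn oil was higher at 8 and 24 h than at 2 and 72 h.

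The F test for a DEHP effect that differs between times called Ass1 (adjusted p = 0.00514), as it did 2.08% of all genes. No step between successive times was called for Ass1: the change of the effect was -0.42 at 8 h minus 2 h (adjusted p = 0.557), 0.57 at 24 h minus 8 h (0.355) and 0.84 ± 0.22 at 72 h minus 24 h (0.273). Of all genes, 0.181% were called lower and 0.286% higher at the middle step, and 0.022% lower and 0% higher at the last. The 8 h call of Ass1 was lost without replicate 2 (adjusted p = 0.0555) or 3 (0.0603) of DEHP or replicate 3 of corn oil (0.075), and with the Actb 3' minus 5' difference as a covariate (0.0697). Its 72 h call was lost without corn oil replicate 2 (0.0537) or replicate 3 (0.0506), and the F test held in all 24 fits that left out 1 array.

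Cps1, carbamoyl phosphate synthetase, catalyses the entry of ammonia into the cycle. Its signals under DEHP and corn oil were 13.14, 13.29 and 13.22 against 13.32, 13.43 and 13.47 at 2 h, and 13.11, 12.97 and 13.15 against 13.08, 13.15 and 13.36 at 8 h. At 24 h they were 13.26, 13 and 13.10 under DEHP and 13.43, 13.34 and 13.45 under corn oil, and at 72 h 13.07, 13.14 and 13.32 under DEHP and 13.19, 13.42 and 13.45 under corn oil. The groups were apart at 2 and 24 h and overlapped at 8 and 72 h. Cps1 fell on average by 0.19 on the log2 scale (SE 0.05, limma adjusted p = 0.0168), a call that held in all 24 fits without 1 array.

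Asl, argininosuccinate lyase, splits argininosuccinate into arginine and fumarate. At 2 h it had 11.22, 11.49 and 11.40 under DEHP and 11.78, 11.60 and 12.02 under corn oil, and at 8 h 11.94, 11.76 and 11.84 against 11.87, 11.80 and 11.94. At 24 h it had 11.47, 11.39 and 11.36 under DEHP and 11.47, 11.60 and 11.89 under corn oil, and at 72 h 11.53, 11.57 and 11.65 against 11.59, 11.97 and 11.67. The arrays were apart at 2 h alone, where the difference of -0.43 ± 0.12 was not called (adjusted p = 0.106). On average Asl fell by 0.22 (SE 0.06, adjusted p = 0.0276); the call was lost without DEHP replicate 1 of 2 h, DEHP replicate 3 of 24 h, corn oil replicate 3 of 2, 8 or 24 h, or corn oil replicate 2 of 72 h, with an adjusted p of 0.0513 to 0.0569. Without the arrays numbered RC 14, a number that the titles give to replicate 3 of corn oil and to replicate 2 of DEHP at 8 h, the average calls of Cps1 (adjusted p = 0.0552) and Asl (0.0744) and the 8 h call of Ass1 (0.162) were lost. Otc, ornithine transcarbamylase, had a mean difference of -0.21 ± 0.07 (adjusted p = 0.0517). Arg1, the arginase that releases urea, had -0.03 ± 0.06, and Nags, which makes the activator of Cps1, had -0.14 ± 0.07.

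Of the enzymes of phenylalanine and tyrosine breakdown (Tat, Hpd, Hgd, Fah and Qdpr), Tat rose at 8 h and Fah fell on average. Tat, tyrosine aminotransferase, opens tyrosine breakdown. At 8 h it had 12.96, 13.02 and 13.10 on DEHP arrays and 12.64, 12.09 and 12.34 on corn oil arrays, with no overlap. At the other times the groups lay close: 13.07, 13.01 and 13.08 under DEHP against 13.27, 13.11 and 13.23 under corn oil at 2 h, 13.18, 12.89 and 13.03 against 12.95, 13 and 12.98 at 24 h, and 13, 13.18 and 13.20 against 13.14, 13.21 and 13.06 at 72 h. The DEHP arrays of 8 h thus lay within the range of the DEHP arrays of the other times, and the corn oil arrays of 8 h lay below every other array. The difference at 8 h was 0.67 ± 0.10 (limma adjusted p = 0.00038), and the call held without each of the 6 arrays of 8 h in turn. Without corn oil 8 h replicate 2, which stands apart in Actb, it was 0.54 (adjusted p = 0.00382). The effect at 8 h exceeded that at 2 h by 0.82 ± 0.15 (adjusted p = 0.0104), a step called higher in 0.143% and lower in 0.275% of all genes, and Tat passed the F test for a difference between times (adjusted p = 0.00985), a call lost with the Actb covariate.

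Fah, fumarylacetoacetase, carries out the last step of tyrosine breakdown. It had 12.27, 12.47 and 12.31 under DEHP and 12.54, 12.60 and 12.52 under corn oil at 2 h, and 12.46, 12.44 and 12.49 against 12.58, 12.68 and 12.68 at 8 h. At 24 h it had 12.45, 12.52 and 12.42 under DEHP and 12.49, 12.51 and 12.68 under corn oil, and at 72 h 12.45, 12.46 and 12.53 against 12.59, 12.75 and 12.63. The DEHP arrays lay below the corn oil arrays at 2, 8 and 72 h. No single time was called, with differences of -0.20, -0.18, -0.10 and -0.18 in order of time, and the mean fell by 0.16 (SE 0.04, limma adjusted p = 0.00952), which held in all 24 fits without 1 array. Hpd, Hgd and Qdpr had mean differences of -0.04, -0.06 and -0.07 and were not called at any time.

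On the tryptophan pathway, which leads through kynurenine towards NAD, the opening enzyme rose at 8 h while Kynu fell at 72 h, and Kynu and Haao fell on average. Tdo2, tryptophan dioxygenase, had 13.49, 13.41 and 13.55 on the DEHP arrays of 8 h and 13.09, 13.14 and 13.21 on the corn oil arrays, with no overlap. At 2 h it had 13.24, 13.19 and 13.30 against 13.21, 13.18 and 13.36, which overlapped. At 24 h its signals ranged from 13.06 to 13.19 under DEHP and from 13.12 to 13.26 under corn oil. At 72 h they ranged from 13.10 to 13.13 against 13.05 to 13.29, and both times overlapped. The 8 h difference was 0.34 ± 0.08 (limma adjusted p = 0.012), or 0.34 (0.0434) without corn oil 8 h replicate 2, and its other probe sets gave 0.42 and 0.39. The call was lost without DEHP replicate 3 (0.0762) or corn oil replicate 1 (0.0541), with the Actb covariate (0.0764) and in a fit of the 6 arrays of 8 h alone (0.0959).

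Kynu, kynureninase, splits kynurenine and its hydroxylated form. Its signals were 10.89, 10.77 and 10.72 on the DEHP arrays of 72 h and 11.17, 11.22 and 11.23 on the corn oil arrays, and at 8 h 10.62, 10.74 and 10.32 against 10.78, 10.81 and 10.84; neither time overlapped. At 24 h they were 10.86, 10.80 and 11 against 11.14, 10.99 and 11.38, and at 2 h 11.23, 11.29 and 11.28 against 11.04, 11.18 and 11.25, and both times overlapped. The difference was -0.41 ± 0.10 at 72 h (limma adjusted p = 0.0246) and -0.21 ± 0.05 on average (0.0144). The 72 h call was lost without replicate 2 (0.0861) or 3 (0.104) of DEHP or replicate 2 (0.0886) or 3 (0.0823) of corn oil, while the average call held in all 24 fits without 1 array. With the mean of both Kynu probe sets, of which the second is dim at 6.26, neither call held (adjusted p = 0.08 at 72 h and 0.103 on average).

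Haao, which opens the ring of 3-hydroxyanthranilate, had 12.08, 12.47 and 12.07 under DEHP and 12.59, 12.53 and 12.56 under corn oil at 2 h, and 12.25, 12.08 and 12.22 against 12.42, 12.38 and 12.37 at 8 h. At 24 h it had 12.31, 12.20 and 11.92 against 12.21, 12.33 and 12.52, and at 72 h 12.38, 12.35 and 12.47 against 12.36, 12.57 and 12.35. The groups were apart at 2 and 8 h and overlapped later. The mean difference of Haao was -0.20 ± 0.05 (limma adjusted p = 0.0316). It was no longer called without DEHP replicate 1 or 3 of 2 h, replicate 2 of 8 h, replicate 3 of 24 h or replicate 2 of 72 h, or corn oil replicate 3 of 24 h or replicate 2 of 72 h (adjusted p from 0.0502 to 0.0659), and was lost with array weights (0.0841), the Actb covariate (0.0513), without the arrays numbered RC 14 (0.0702) and without the 4 arrays rich in pancreas markers (0.0918). Afmid, arylformamidase, had its largest difference at 2 h, -0.50 ± 0.14 (adjusted p = 0.112), and Kmo, kynurenine monooxygenase, lay between -0.25 and 0.13 at the 4 times.

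In proline and ornithine breakdown, Prodh fell while the other 3 members (Prodh2, Aldh4a1 and Oat) were not called. Prodh, proline dehydrogenase, is the mitochondrial enzyme that starts proline breakdown. At 2 h it had 10.08, 10.47 and 10.16 on DEHP arrays and 10.90, 11.08 and 11.24 on corn oil arrays. At 8 h it had 10.25, 10.24 and 10.22 against 10.91, 11.09 and 11.21, and at 24 h 10.26, 10.31 and 10.09 against 10.68, 10.59 and 11.45. The DEHP arrays lay below every corn oil array at these 3 times. At 72 h the signals were 10.62, 10.83 and 11.05 under DEHP and 10.89, 11.37 and 11.02 under corn oil, which overlapped. Prodh fell by 0.84 at 2 h (SE 0.17, limma adjusted p = 0.0176) and by 0.83 at 8 h (SE 0.17, 0.00551); the differences of -0.68 ± 0.17 at 24 h (0.135) and -0.26 ± 0.17 at 72 h (0.396) were not called. On average it fell by 0.65 (SE 0.09, adjusted p = 3.82e-05), and this call held in all 24 fits without 1 array and under every other setting tried.

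The 2 h call of Prodh was lost without replicate 1 (adjusted p = 0.139) or 3 (0.0928) of DEHP or replicate 2 (0.0562) or 3 (0.113) of corn oil, and without the 4 arrays rich in pancreas markers, where the difference was -0.76 (0.227). The 8 h call held without each of its 6 arrays and was lost without both arrays numbered RC 14 (0.0552). Prodh2, which oxidises hydroxyproline, had -0.36 ± 0.12 at 2 h and -0.27 ± 0.12 at 8 h, with every DEHP array below corn oil at both times. Aldh4a1, the next enzyme of the pathway, had -0.26 ± 0.10 at 2 h and 0.23 ± 0.10 at 8 h. Oat, ornithine aminotransferase, had positive differences at all 4 times, the largest at 72 h, where 12.28, 12.33 and 12.37 under DEHP stood against 11.86, 12.14 and 12.01 under corn oil (0.32 ± 0.14, adjusted p = 0.178). Glul, glutamine synthetase of the pericentral hepatocytes, had -0.47 ± 0.20 at 2 h and 0.10 ± 0.20 at 72 h and was not called.

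None of the 4 transaminases (Got1, Got2, Gpt and Gpt2), which move amino groups between amino acids and keto acids, passed the test. All had a negative difference at 2 h, with a median of -0.49. Gpt, alanine transaminase, had 10.48, 10.89 and 10.20 on the DEHP arrays of 2 h and 11.08, 11.16 and 11.06 on the corn oil arrays, which did not overlap, and its difference of -0.58 ± 0.14 missed the threshold (limma adjusted p = 0.051). A second, dimmer Gpt probe set, with a mean signal of 8.81, gave -0.17 at 2 h (limma adjusted p = 0.858 over all probe sets). At 8, 24 and 72 h the differences of Gpt on the probe set used lay between -0.08 and -0.03. Gldc, of the glycine cleavage system, lay between -0.30 and 0.16 and was not called.

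All 8 members of methionine and cysteine metabolism (Bhmt, Bhmt2, Mat1a, Gnmt, Ahcy, Cbs, Cth and Cdo1) had a negative difference at 24 h, at 72 h and on average, and Gnmt, Cbs and Cdo1 fell on average. Gnmt, glycine N-methyltransferase, uses up surplus S-adenosylmethionine. It had 13.39, 13.66 and 13.40 under DEHP and 13.83, 13.85 and 13.83 under corn oil at 2 h, 13.50, 13.36 and 13.54 against 13.80, 13.68 and 13.78 at 8 h, and 13.53, 13.54 and 13.43 against 13.73, 13.69 and 13.95 at 24 h. The DEHP arrays lay below all corn oil arrays at these 3 times. At 72 h it had 13.70, 13.72 and 13.79 against 13.74, 13.98 and 13.80, which overlapped. The differences were -0.36 (limma adjusted p = 0.0637), -0.29 (0.0777), -0.29 (0.327) and -0.10 (0.545) in order of time, none of them called. The mean fell by 0.26 (SE 0.04, 0.00077), and this call held in all 24 fits without 1 array and under every other setting tried.

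Cbs, cystathionine beta-synthase, commits homocysteine to cysteine synthesis. At 72 h it had 10.99, 10.86 and 10.92 on DEHP arrays and 11.42, 11.47 and 11.32 on corn oil arrays, while at 2 h the order was turned round, with 11.53, 11.41 and 11.47 under DEHP and 11.29, 11.35 and 11.29 under corn oil. Neither time overlapped. At 8 h it had 10.86, 11.07 and 10.95 against 11.35, 11.24 and 11.02, and at 24 h 11.41, 11.09 and 11.17 against 11.30, 11.29 and 11.41, which overlapped. The difference was 0.16 ± 0.09 at 2 h (limma adjusted p = 0.713) and -0.48 ± 0.09 at 72 h (0.00551), where a second probe set gave -0.51, and the 72 h call held without each of its 6 arrays. Cbs passed the F test for an effect that differs between times (0.04), but in 9 of 24 fits without 1 array only. That call was lost without DEHP replicate 1 or 3 of 2 or 8 h, any DEHP array of 72 h, any corn oil array of 2 or 72 h, or corn oil replicate 2 of 8 h or replicate 1 of 24 h (0.0515 to 0.0972). Quantile normalization (0.11) and the Actb covariate (0.0551) ended the F test call too. So did leaving out both arrays that stand apart in Actb and in neutrophil markers (0.0874), or the 4 arrays rich in pancreas markers (0.16).

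The mean difference of Cbs was -0.17 ± 0.05 (limma adjusted p = 0.0282). Its second probe set gave -0.12 on average, not called over all probe sets (limma adjusted p = 0.196), and -0.09 at 8 h, against -0.245 there on the one used. The average call was lost without DEHP replicate 1 of 8 h, replicate 2 or 3 of 24 h or replicate 2 of 72 h. It was lost as well without corn oil replicate 2 of 2 or 72 h or replicate 3 of 24 h (adjusted p from 0.0521 to 0.0571 over these fits). Quantile normalization (0.0966), median centring (0.0613) and the Actb covariate (0.0525) also ended the call. So did leaving out both arrays that stand apart in Actb and in neutrophil markers (0.0519), or the 4 arrays rich in pancreas markers (0.0657).

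Cdo1, cysteine dioxygenase, oxidises cysteine on the way to taurine and sulfate. At 8 h it had 12.73, 12.42 and 12.72 on DEHP arrays and 13.04, 12.85 and 13.04 on corn oil arrays, at 24 h 13.14, 12.99 and 13.05 against 13.26, 13.30 and 13.32, and at 72 h 13.08, 13.05 and 13.05 against 13.21, 13.39 and 13.25. The DEHP arrays were the lower at all 3 of these times. At 2 h it had 13.11, 13.03 and 13.14 against 13.25, 13.12 and 13.17, which overlapped. Cdo1 fell by 0.35 at 8 h (SE 0.09, limma adjusted p = 0.0164) and by 0.22 on average (SE 0.04, 0.00195), and the average call held in all 24 fits without 1 array and under every other setting tried. The 8 h call was lost without DEHP replicate 2 (0.0949) or corn oil replicate 1 (0.0708) or 3 (0.0701), without both arrays numbered RC 14 (0.225) and in a fit of the 8 h arrays alone (0.165). Of the methionine and cysteine members not called, Bhmt2 had the most negative mean difference, -0.16 ± 0.06 (0.156), and Cth, cystathionine gamma-lyase, had -0.07 ± 0.07.

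Of the 4 histidine enzymes (Hal, Uroc1, Amdhd1 and Ftcd), all had a negative difference at 8 h and at 24 h, and Hal fell at 8 h and on average. Hal, histidine ammonia-lyase, removes ammonia from histidine as the opening step. At 8 h it had 10.03, 10.57 and 9.96 on DEHP arrays and 11.19, 10.84 and 11.28 on corn oil arrays, and at 72 h 11.20, 11.04 and 11.24 against 11.59, 11.61 and 11.37. The groups were apart at both times. At 2 h it had 10.85, 11.11 and 10.99 against 11.12, 11.05 and 11.19, and at 24 h 11.24, 11.30 and 11.04 against 11.19, 11.29 and 11.66, which overlapped. Hal fell by 0.92 at 8 h (SE 0.15, limma adjusted p = 0.000459), so that it was 1.89-fold lower, and the call held without each of the 6 arrays of 8 h and without both arrays numbered RC 14. Without corn oil 8 h replicate 2 it fell by 1.05 (0.000366). On average it fell by 0.40 (SE 0.07, 0.00133), which held in all 24 fits without 1 array. Amdhd1, the imidazolonepropionase that follows later in the pathway, had 10.03, 10.46 and 9.83 on the DEHP arrays of 8 h and 10.46, 10.52 and 10.51 on the corn oil arrays, a difference of -0.39 ± 0.13 that was not called (0.116).

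None of the 6 branched-chain enzymes (Bcat2, Bckdha, Bckdhb, Ivd, Mccc1 and Hibadh), which break down leucine, isoleucine and valine, was called. All had a negative difference at 2 h and at 8 h, with medians of -0.16 and -0.17, and 5 of 6 had a positive one at 72 h. The largest was Bckdha, a subunit of the branched-chain keto acid dehydrogenase, at 8 h, with 11.03, 11.07 and 10.95 on DEHP arrays and 11.28, 11.29 and 11.43 on corn oil arrays, which did not overlap. Its difference of -0.32 ± 0.10 missed the threshold (limma adjusted p = 0.0851).

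Aass, the bifunctional enzyme that starts lysine breakdown, rose at 8 h and was the member that rose on average. At 8 h it had 11.44, 11.55 and 11.37 on DEHP arrays and 10.88, 10.86 and 11.08 on corn oil arrays, with no overlap. At 2 h it had 11.41, 11.09 and 11.21 against 10.93, 10.98 and 11.18, at 24 h 10.85, 10.80 and 10.64 against 10.80, 10.44 and 10.97, and at 72 h 10.95, 10.87 and 10.95 against 10.73, 10.82 and 10.94, which overlapped. The difference was 0.51 ± 0.11 at 8 h (limma adjusted p = 0.0107) and 0.21 ± 0.06 on average (0.0302). The 8 h call was lost without corn oil 8 h replicate 2 (0.47, adjusted p = 0.0595) and with the Actb covariate (0.0726). The average call of Aass was lost without DEHP replicate 1 of 2 h, replicate 1 or 2 of 24 h or replicate 3 of 72 h, or corn oil replicate 2 of 2, 8 or 72 h (0.0503 to 0.0575), without both arrays that stand apart in Actb and in neutrophil markers (0.0671), and without the 4 arrays rich in pancreas markers (0.149).

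**Figure D3:**
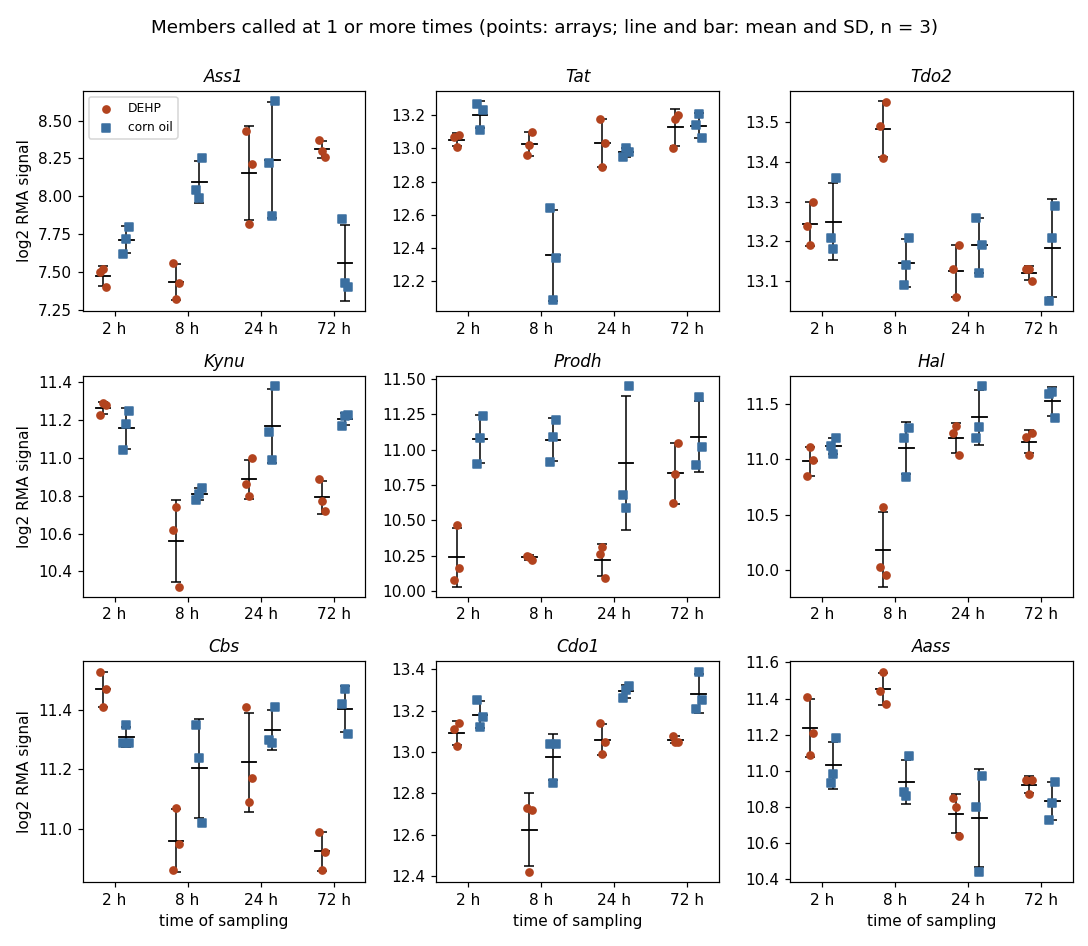
Log2 RMA signal (vertical axes, each with its own range) of the 9 members called at 1 or more times, on the DEHP arrays (circles, left) and corn oil arrays (squares, right) of 2, 8, 24 and 72 h; the line and bar give the mean and SD of 3 arrays. Prodh lies lower under DEHP at 2, 8 and 24 h, Hal at 8 h, and Tat differs at 8 h, where its corn oil arrays are lower than at any other time.

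Some members differed between times in the corn oil mice themselves. The F test over the corn oil groups called Ass1 (limma adjusted p = 0.0277), Tat (9.55e-05), Got1 (0.00267) and Gldc (0.00016), against 3.55% of all genes. Between 8 h and 2 h of corn oil, 4 members were lower at 8 h and none higher, against 1.09% and 2.96% of all genes. These were Got1 (-1.13 ± 0.17, adjusted p = 0.000508), Gldc (-0.89 ± 0.14, 0.000646), Tat (-0.85 ± 0.10, 4.59e-05) and Bhmt, betaine-homocysteine methyltransferase (-0.35, 0.0255). Between 24 h and 8 h, Gldc (1.03 ± 0.14, 0.000158), Tat (0.62 ± 0.10, 0.00139) and Cdo1 (0.32, 0.0467) were higher at 24 h and none was lower, against 0.78% and 1.79% of all genes. No member was called between 72 h and 24 h or between 24 h and 2 h, which does not show that none changed. Of all genes, 0% were lower and 0.011% higher at 72 h than at 24 h. Between 24 h and 2 h, 0.0055% were lower and 0.0055% higher at 24 h. The clock times of sampling and the feeding state are not given in the labels used here.

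Got1, the cytosolic aspartate transaminase, had 11.79, 11.60 and 11.71 on the DEHP arrays of 8 h and 12.02, 12.17 and 12.27 on those of 2 h, and 11.40, 11.19 and 11.95 on the corn oil arrays of 8 h and 12.79, 12.43 and 12.71 on those of 2 h. With either gavage every array of 8 h was below every array of 2 h, and the DEHP and corn oil arrays of 8 h overlapped. Gldc had 9.25, 9.77 and 9.18 on the DEHP arrays of 8 h and 10.76, 10.63 and 10.86 on those of 2 h, and 9.69, 9.67 and 9.75 on the corn oil arrays of 8 h and 10.54, 10.72 and 10.52 on those of 2 h. Tat, by contrast, was low at 8 h on the corn oil arrays and not on the DEHP arrays. The Bhmt call was lost without corn oil 2 h replicate 1 or 3 or corn oil 8 h replicate 1 (adjusted p up to 0.152), and that of Cdo1 held in 7 of 24 fits without 1 array, with an adjusted p up to 0.238. The corn oil F test of Ass1 was lost without replicate 1 of 2 or 24 h, replicate 2 of 8 h, or replicate 2 or 3 of 72 h (up to 0.0829), and without both arrays numbered RC 14 (0.0527). With the Actb covariate the corn oil F tests of Ass1 (0.0875) and Got1 (0.0607) and the 2 steps of Bhmt (0.0591) and Cdo1 (0.366) were lost, while those of Tat and Gldc held.

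**Figure D4:**
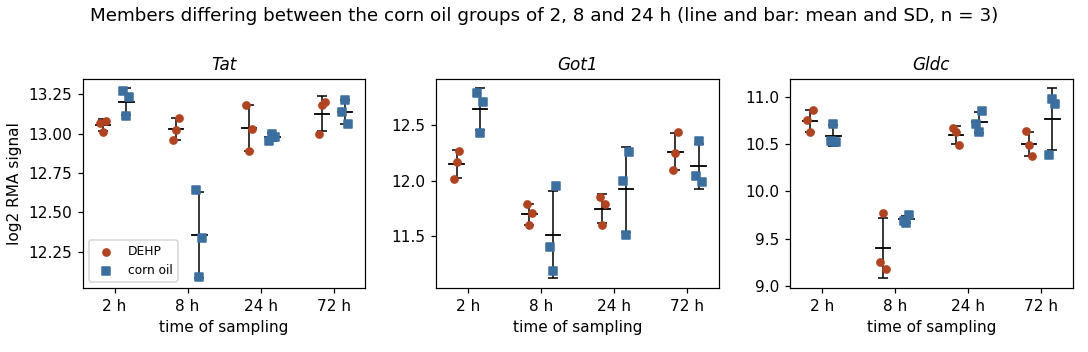
Log2 RMA signal of Tat, Got1 and Gldc on the DEHP arrays (circles, left) and corn oil arrays (squares, right) at 2, 8, 24 and 72 h, with mean and SD of 3 arrays. Got1 and Gldc are lower at 8 h than at 2 h in both groups, while Tat is lower at 8 h in the corn oil arrays alone.

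Other enzymes of amino acid metabolism, from a separate list of which 57 were measured, held 4 that fell (7.02%) and 2 that rose (3.51%) on average, near the 4.42% and 1.98% of all genes, with a median difference of -0.07 against -0.02. Pipox, the peroxisomal oxidase of pipecolate and sarcosine, fell by 0.38 (SE 0.06, limma adjusted p = 0.000562), and Suox, sulfite oxidase, rose by 0.26 (SE 0.05, 0.00312); both calls held in all 24 fits without 1 array. Etnppl, a phospho-lyase of phosphoethanolamine, fell by 1.22 at 8 h (SE 0.27, 0.00852), a call that held without each of its 6 arrays and was lost with the Actb covariate and with the mean of its probe sets. The average calls of Etnppl (-0.48), Sardh, sarcosine dehydrogenase (-0.20), Glud1, glutamate dehydrogenase (-0.14), and Csad, a taurine synthesis enzyme (0.23), held in 14, 12, 7 and 7 of 24 fits without 1 array, with an adjusted p up to 0.067, 0.0743, 0.0757 and 0.0894. With the mean of its probe sets the average difference of Etnppl was -0.22 and not called (limma adjusted p = 0.446).

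At single times, Shmt1, serine hydroxymethyltransferase, fell by 0.58 at 2 h (limma adjusted p = 0.0306), and the call was lost without DEHP or corn oil replicate 1 or 3 of 2 h (up to 0.201). Psph, phosphoserine phosphatase of serine synthesis, fell by 1.00 at 72 h (0.0156), lost without DEHP replicate 2 or 3 or corn oil replicate 3 of 72 h (up to 0.091). Pipox fell by 0.48 at 8 h (0.0297), lost without DEHP replicate 1 or 2 or corn oil replicate 3 of 8 h (up to 0.167). The other calls held in 1 of 6 fits without 1 array. Gcsh, a subunit of the glycine cleavage system (-0.38 at 8 h, 0.0391), held only without corn oil replicate 1 and otherwise reached up to 0.195, and Suox (0.36 at 8 h, 0.0477) held only without corn oil replicate 3 (up to 0.216). At 72 h Csad (0.50, 0.0374) held only without corn oil replicate 3 (up to 0.133) and Suox (0.37, 0.0416) only without corn oil replicate 2.

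Of 20 measured amino acid carriers, 3 fell on average (15%) and none rose, against 4.42% and 1.98% of all genes. Slc25a15, which carries ornithine into mitochondria for the urea cycle, fell by 0.18 (SE 0.04, limma adjusted p = 0.0174), and 2 carriers of betaine, GABA and taurine, Slc6a12 (-0.30 ± 0.05, 0.000562) and Slc6a13 (-0.15 ± 0.04, 0.0232), fell as well. These 3 calls held in all 24 fits without 1 array, and that of Slc25a15 was lost with the mean of its probe sets (-0.10, 0.426). Slc1a2, a glutamate carrier, fell by 0.69 at 8 h (0.0499), a call that held without corn oil replicate 1 only (up to 0.241). Slc6a12 fell at 72 h by 0.39 (0.0266), lost without DEHP replicate 1 or 2 or corn oil replicate 2 or 3 (up to 0.151).

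Of 23 measured regulators known to act on these genes or on the response to amino acid supply, 6 fell (26.1%) and 1 rose (4.35%) on average, against 4.42% and 1.98% of all genes. Creb3l3, a liver transcription factor released from the endoplasmic reticulum, rose by 0.53 at 2 h (SE 0.09, limma adjusted p = 0.00317), 0.42 at 8 h (0.00791) and 0.25 on average (0.00148). Gcgr, the glucagon receptor, fell on average by 0.23 (SE 0.05, 0.00335). Foxo3, a transcription factor of the insulin response, fell by 0.93 at 2 h (0.000649) and by 0.31 on average (0.00744), and Ddit3, a stress transcription factor, by 0.74 at 72 h (0.00537) and by 0.33 on average (0.00575). These calls held in every fit without 1 array. The 8 h call of Creb3l3 was lost with the Actb covariate (0.0739), without both arrays numbered RC 14 (0.0749) and in the 6 arrays of 8 h alone (0.0576), and the average call of Foxo3 was lost with the mean of its probe sets (-0.16, 0.0985). The average calls of Ppargc1a (-0.68), Sirt1 (-0.27) and Atf4 (-0.23) held in 6, 7 and 15 of 24 such fits (adjusted p up to 0.0926, 0.0939 and 0.0629).

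Several calls of regulators at single times were lost without 1 array. Fgf21, a liver hormone of fasting, rose by 0.95 at 2 h (limma adjusted p = 0.0323), a call that held without DEHP replicate 2 only (up to 0.317). Gcgr fell by 0.37 at 8 h (0.0214), lost without any of the corn oil arrays or DEHP replicate 3 (up to 0.121), and Sirt3, a mitochondrial deacylase, fell by 0.35 at 8 h (0.0475), a call that held without DEHP replicate 2 only (up to 0.201). Hnf4a, a hepatocyte transcription factor, fell by 0.46 at 72 h (0.0221), lost without DEHP replicate 2 or 3 or corn oil replicate 2 (up to 0.116).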

How the data were processed

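Liver RNA was measured in 24 samples, 3 for each compound and time, grouped by the sample labels. The authors deposited RMA signals on a log2 scale, with RMA named in the submitters' processing notes; its version and the genome build are not given in the sources used here. They range from 2.84 to 14.55, with array medians of 6.46 to 6.55. Precision rests on the number of arrays, as arrays have no read depth.

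The probe annotation supplied for the platform gave 34958 of 45101 probe sets 1 symbol, 932 several and 9211 none, and 34754 symbols were looked up by Entrez ID. Of 18194 genes, 9012 had more than 1 probe set, and the one with the highest mean over all arrays was used. Of the members, 17 had more than 1.

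From these values, limma 3.58.1 in R 4.3.3 fitted 8 group means to all 24 arrays (16 residual and 6.21 prior degrees of freedom), with moderated tests of DEHP minus corn oil at each time and on average, F tests between times, and Benjamini-Hochberg adjustment over all genes. Code for tables and figures used Python 3.11.15, pandas 2.3.3 and matplotlib 3.10.9, and the fit was tested on simulated data.

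Values on every array are given for members called at a time or on average, up to 6 in a pathway; other members are given by ranges, or by value where the largest difference of a pathway was not called. Called genes of the other lists are named, up to 6 at a time. The members, lists, motifs and alternatives were chosen with earlier results of these data known. Promoters came from RefSeq (GRCm38.p6).

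Alternatives were genes above percentile 40 of signal, the replicate number or the first replicates as a block, array weights, robust estimation with a variance trend, the mean of all probe sets, quantile normalization, median centring, an adjusted p under 0.01, the Actb 3' minus 5' difference as a covariate, leaving out the arrays numbered RC 14, the arrays of 1 time alone, and leaving out each array. Leaving out the arrays that stand apart, and those with a pancreas marker mean above 9, was added after seeing the data.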

Additional observations from a re-analysis of the deposited data

Results flagged for a closer look

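The difference between DEHP and corn oil changed with time in 3 members, by the F test across the 4 times (limma, Benjamini-Hochberg adjusted over 18194 genes). In Ass1 (adjusted p = 0.00514) the difference was -0.24, -0.66, -0.09 and 0.75 at 2, 8, 24 and 72 h. In Tat (adjusted p = 0.00985) it was -0.15, 0.67, 0.05 and -0.01, and the call was lost with the Actb 3' minus 5' difference as a covariate. In Cbs (adjusted p = 0.04) it was 0.16, -0.24, -0.11 and -0.48, and the call held in 9 of 24 fits that left out 1 array, with an adjusted p up to 0.0972. The Cbs call was also lost with quantile normalization (0.11) and the Actb covariate (0.0551). It was lost as well without both arrays that stand apart (0.0874) and without the pancreas-rich arrays (0.16).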

How the results depend on the processing

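No called member changed direction under any alternative; 544 values of called members stayed on the same side of the threshold and 83 did not. Calls held in every fit without 1 array for 0 of 1 at 2 h, 3 of 7 at 8 h, 1 of 3 at 72 h and 7 of 11 on average. Without 1 array the count ranged over 0 to 5 lower and 0 to 0 higher at 2 h, 2 to 5 and 2 to 4 at 8 h, 0 to 1 and 0 to 0 at 24 h, 1 to 3 and 0 to 1 at 72 h, and 7 to 12 and 0 to 2 on average; the F tests called 8 to 15 at any time, 2 to 4 between times and 3 to 6 in corn oil.

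Members lower at 2 h (1) numbered 3 above the 40th percentile of signal, 2 with the mean of probe sets, 3 with variance trend and robust estimation, 2 after quantile normalization, 0 at an adjusted p under 0.01, 2 with the Actb covariate, 3 without the arrays that stand apart (replicate 2 of corn oil at 8 h and replicate 1 of corn oil at 72 h), and 0 without the pancreas-rich arrays. At 8 h, lower (4) and higher (3) became 2 and 1 at the stricter threshold, and higher became 1 with the Actb covariate. At 24 h, 1 member was lower after quantile normalization, against 0. At 72 h, lower (2) became 1 with the mean of probe sets, 4 with array weights and 1 at the stricter threshold. On average, lower (10) became 5 and higher (1) became 0 at the stricter threshold, and higher became 0 without those that stand apart and without the pancreas-rich arrays. Members changed at any time (9) became 16 with array weights. Members differing between times (3) became 5 with array weights, 1 with the Actb covariate and 5 without the arrays numbered RC 14, and those differing in corn oil (4) became 2 with the Actb covariate. The stricter threshold and fits with fewer arrays or genes differ by construction; for the others the cause was not tested. Over all genes, array weights gave 1909 lower at 72 h against 555, and the Actb covariate 195 lower at 8 h against 520.

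Same-numbered arrays of DEHP and corn oil did not deviate together (r from -0.351 to 0.144 over 12 same-numbered pairs of arrays, 1 of them over 0.1), so the arrays were not paired by number. Pairs with other numbers had r from -0.341 to 0.328, with 6 of 24 over 0.1. Replicate 1 of every group is numbered RC 1 to 8 and the other replicates have higher RC numbers. What this order stands for is not given in the labels. With the replicate block the counts were 1 lower at 2 h, 4 lower and 3 higher at 8 h, 2 lower and 1 higher at 72 h, and 11 lower and 1 higher on average.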

Other observations

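Genes that mark the zones of the liver lobule were also followed. Of 9 measured periportal genes, 3 fell on average and none rose, against 4.42% and 1.98% of all genes. Aldh1b1, a mitochondrial aldehyde dehydrogenase, fell by 0.41 (limma adjusted p = 0.000886), and Pigr, the receptor that carries immunoglobulins across epithelia, by 0.24 (0.0101); both held in all 24 fits without 1 array. Cdh1, E-cadherin, fell by 0.36 (0.0363), a call that held in 11 of them (up to 0.072). At single times Aldh1b1 fell by 0.69 at 2 h (0.0179), a call that held in 2 of 6 fits without 1 array (up to 0.12), and by 0.54 at 72 h (0.0353), a call lost in all 6 (up to 0.129). Cdh1 fell by 0.87 at 8 h (0.0153), lost without DEHP replicate 1 or 3 or corn oil replicate 2 of 8 h (up to 0.133) and with the Actb covariate (0.143). Of 13 pericentral genes, which include the members Oat and Glul, none fell on average and 1 rose: Lhpp, a phosphatase, by 0.29 (0.0095), which held in all 24 fits. Its rise of 0.48 at 72 h (0.0434) held in 1 of 6 fits (up to 0.221) and was lost with the replicate block (0.0546) and with the Actb covariate (0.0539). Cyp7a1, which starts the making of bile acids from cholesterol, fell by 1.40 at 2 h (0.0195), a call lost without DEHP or corn oil replicate 2 or 3 of 2 h (up to 0.14).

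Some members gave different values on their other probe sets. Uroc1, urocanate hydratase, had a mean difference of 0.03 on the probe set used and -0.35 on another, which passed the limma test over all probe sets (adjusted p = 0.036). Got2, the mitochondrial aspartate transaminase, had 0.08 at 8 h on the probe set used and 0.47 on another (adjusted p = 0.0818). Gpt had -0.58 at 2 h on the probe set used and -0.17 on its other one. Otc had -0.10 at 72 h on the probe set used, -0.17 on another and 0.42 on a dimmer one with a mean of 7.71, none of them called.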
